A study of Mus musculus with 47 samples.

Results

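The expression, labeling and decay of 42 nucleolar ribosome biogenesis genes were followed in 47 SLAM-seq libraries of P19 cells. The genes were taken from a fixed list of factors for rRNA modification, rRNA processing and RNA polymerase I, by matching their symbols to the RefSeq mRNA names of the 3′ UTR rows. All 42 had a row among the 18980 genes of the files, with 53 transcripts in all, and the transcript with most reads stood for each gene. P19 cells come from a mouse embryonal carcinoma and turn into neurons under retinoic acid. Undifferentiated cells (D0, 24 libraries) were compared with cells after 6 days of retinoic acid in NDiff 227 medium (D6, 23 libraries). SLAM-seq marks new RNA with the uridine analog 4-thiouridine (4sU). After alkylation it is sequenced as C, and T>C conversions count the labeled positions. D0 cells received 20 µM 4sU and D6 cells 500 µM, so that an effect of the dose and an effect of the state cannot be told apart in any library with 4sU. In the anabolic assay cells were harvested during labeling, and in the catabolic assay they were labeled for 15 h and then chased with unlabeled uridine triphosphate. The labels give the hours of both assays as 0, 1, 3 and 9 h and the study's methods give 0, 3, 6 and 9 h, so that comparisons were made between 0 and 9 h, on which both sources have the same hours. Each state, assay and time had 3 libraries, except the third time of the catabolic assay at D6 with 2. The study describes the replicates as biological, and p-values measure the spread between these libraries.

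Ribosomes are built in the nucleolus. RNA polymerase I transcribes the rRNA precursor, box C/D and box H/ACA ribonucleoproteins modify it at sites chosen by their guide RNAs, and the small subunit processome folds and cleaves it. Large subunit factors then process the remaining precursor, and late factors carry both subunits to the cytoplasm. Production of ribosomes is known to be high in proliferating stem cells and to fall as neurons form, and many of the genes are known targets of MYC, which binds the E-box CACGTG.

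Reads on 3′ UTRs ranged from 3156305 to 10730631 per library at D0 (median 6564304) and from 1342457 to 7175758 at D6 (median 3380897). D6 libraries also varied more. The correlation of a library with the mean of the others of its group, over 7276 genes with a mean of at least 20 CPM (reads scaled to the total of the library), ran from 0.779 to 0.973 at D0 and from 0.448 to 0.856 at D6, and 7 D6 libraries fell under 0.7. The state markers followed the labels. The pluripotency factor Pou5f1 was lower at D6 (log2 fold change -6.82, SE 1.29, adjusted p = 9.16e-05, libraries without 4sU), and the neuronal genes Tubb3 (3.17, SE 0.255) and Map2 (5.27, SE 0.499) were higher. Summed over 8 pluripotency markers, the reads took 1024 to 1496 CPM at D0 and 3.21 to 54.7 at D6, with Zfp42 and Dppa5a at 0 in all libraries. The 10 neuronal markers took 1269 to 1677 CPM at D0 and 10706 to 15307 at D6, all of them called higher. The 12 markers of glia, mesenchyme and endoderm took 76.3 to 161 CPM at D0 and 0.375 to 45.7 at D6. Aqp4, Aldh1l1 and Sox17 were at 0 in both states, and Gata4 and Afp also at D6.

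As a group, the 42 genes took a smaller share of the reads after differentiation. Their summed reads, as CPM of the library without TMM, ranged from 8641 to 11178 at D0 (median 10479) and from 2795 to 4404 at D6 (median 3747). No D6 library reached the lowest D0 library. Without Ncl, which encodes nucleolin, the most read of these genes, the ranges were 6847 to 8456 and 2160 to 3393. Reads are shares of a library of bulk cells, and fewer cells of a type and less RNA per cell cannot be told apart.

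**Figure D1:**
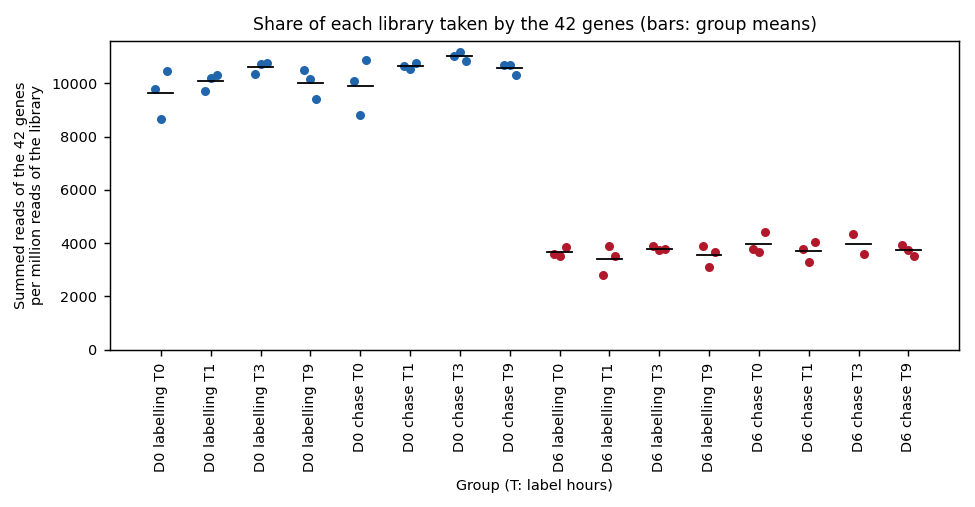
Summed 3′ UTR reads of the 42 genes as CPM of the library (without TMM), for every library of the 16 groups. Points are libraries, bars are group means, with the anabolic (labelling) and the catabolic (chase) assay, and T gives the hours of the labels. D0 libraries (blue) lie between 8641 and 11178 and D6 libraries (red) between 2795 and 4404.

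To test each gene, reads were fitted across all 13312 genes that passed the filter on low counts, which all 42 did, with edgeR's quasi-likelihood test and Benjamini-Hochberg adjustment at 0.05. In libraries without 4sU (3 against 3), 15 of the 42 genes were lower at D6 (35.7%) and 0 were higher, whereas of all genes 3.96% were lower and 5.54% higher. The median log2 fold change of the 42 was -1.81, against 0.00 for all genes, and 41 of 42 were below 0. After 15 h of 4sU, in other libraries of both states, 14 were lower (33.3%) and 0 higher, against 4.77% and 5.05% of all genes, with a median of -1.43 and all 42 below 0. At an unadjusted p under 0.05, 24 and 22 of the 42 differed (57.1% and 52.4%), all lower, against 22.3% and 22.1% of all genes in either direction. With DESeq2, 18 and 15 were lower and 0 higher, where 6.35% and 7.07% of all genes were lower and 9.1% and 8.86% higher. Of the 42 genes, 41 had a mean of at least 20 CPM. Among all genes at that level, a background chosen after seeing the data, 5.46% were lower and 8.62% higher without 4sU, and 6.84% and 7.93% after 15 h. The count without 4sU fell to 9 when library 38 of D6 was left out (2.74% of all genes lower), and the count after 15 h fell to 9 when any of the 3 D6 libraries (7, 8 or 9) was left out (3.17 to 3.2%).

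Nucleolin, an RNA-binding protein of the nucleolus that acts in rRNA transcription and early processing, had the smallest adjusted p in both comparisons. Its 3′ UTR lies at chr1:86344719-86350619 (mm10, minus strand). Ncl measured 2172, 1882 and 2676 CPM without 4sU at D0 and 900, 799 and 854 at D6, where CPM is TMM-normalized. After 15 h of 4sU it measured 2646, 2145 and 2619 CPM at D0 and 937, 774 and 933 at D6. The 2 states did not overlap in either set. Its log2 fold change was -1.40 (SE 0.196, adjusted p = 1.68e-07) without 4sU, 2.64-fold lower, and -1.49 (SE 0.197, adjusted p = 4.17e-08) after 15 h. Over all libraries Ncl ranged from 1882 to 2957 CPM at D0 and from 638 to 2009 at D6, with 22 of 23 D6 libraries under the lowest D0 library.

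Dkc1 encodes dyskerin, the pseudouridine synthase of H/ACA ribonucleoproteins (3′ UTR at chrX:75108762-75109776, plus strand). It measured 256, 260 and 281 CPM without 4sU at D0 and 54.3, 64.5 and 94.2 at D6. After 15 h of 4sU it measured 236, 385 and 317 CPM at D0 and 69.5, 73.6 and 76.2 at D6. All D6 libraries were well under all D0 libraries in both sets. The fold changes were -1.90 (SE 0.384, adjusted p = 2.50e-04) and -2.10 (SE 0.386, adjusted p = 5.62e-05) on the log2 scale. In all 47 libraries Dkc1 kept the 2 states apart, with 191 to 385 CPM at D0 and 13.4 to 111 at D6. The calls of Ncl, of Dkc1 and of Wdr43 held in both comparisons with each library of the groups left out in turn.

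Heatr1, a scaffold of the processome subcomplex that is also needed for transcription by RNA polymerase I, fell most among the genes called without 4sU (chr13:12438678-12438893, plus strand). It measured 166, 253 and 162 CPM at D0 and 19.8, 6.52 and 14.6 at D6, a log2 fold change of -3.82 (SE 0.821, adjusted p = 6.05e-04). After 15 h of 4sU the difference was -1.96 (SE 0.759) and was not called (adjusted p = 0.0943). Noc2l, a large subunit assembly factor that also binds histones, measured 234, 319 and 271 CPM without 4sU at D0 and 58.6, 87.0 and 57.6 at D6 (-2.02, SE 0.445, adjusted p = 8.44e-04). Neither gene overlapped between the states without 4sU. The 3′ UTR of Noc2l, at chr4:156247120-156247616 on the plus strand, lies with all its 497 bases in that of Samd11 on the other strand. Whether the counting used strand is not given in the sources used here, and the part of Samd11 in the reads was not tested. The same limit applies to Tsr1, which shares 221 bases with Srr, and to 6 further genes (Dkc1, Bop1, Nhp2, Polr1e, Gnl3 and Nop56) that share 5 to 44 bases with a gene on the other strand.

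After 15 h of 4sU, Nhp2 and Wdr43 followed Ncl and Dkc1 in adjusted p. Nhp2, a core protein of H/ACA ribonucleoproteins (chr11:51623218-51623714, plus strand), measured 437, 669 and 380 CPM at D0 and 76.5, 93.3 and 157 at D6 (-2.19, SE 0.478, adjusted p = 7.58e-04). Wdr43, a processome protein of the subcomplex that binds the precursor first (chr17:71657662-71659031, plus strand), measured 393, 437 and 521 CPM at D0 and 55.3, 121 and 86.0 at D6 (-2.37, SE 0.524, adjusted p = 9.17e-04). Every D6 library was under every D0 library for both genes, and both were also called without 4sU. There Nhp2 lost its call in 1 of the 6 fits with 1 library left out (adjusted p 0.00467 to 0.05002).

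The other genes called in both comparisons were Noc2l (-2.02 and -1.57), Ddx21 (-2.58 and -2.21), an RNA helicase, Nop2 (-2.09 and -2.04), an rRNA methyltransferase, Utp4 (-1.86 and -1.61), Rrs1 (-2.49 and -2.32) and Nop16 (-1.66 and -2.28). Nop16 without 4sU lost its call (adjusted p 0.0647 to 0.187) with any of the 6 libraries left out, and after 15 h with 1 of the 6 (0.00418 to 0.0583). Of these genes, Utp4 lost it in 3 of the 6 such fits without 4sU (adjusted p 0.0149 to 0.122) and in 5 after 15 h (0.0329 to 0.240), and Rrs1 in 4 of 6 in both comparisons (0.0281 to 0.0737 and 0.0396 to 0.170). Noc2l lost it in 3 of 6 after 15 h (0.00912 to 0.117), Ddx21 in 1 of 6 after 15 h (0.0187 to 0.0831), and Nop2 in 2 of 6 without 4sU (0.0160 to 0.0720) and 1 of 6 after 15 h (0.0249 to 0.0825). Genes called without 4sU only were Heatr1 (above), Tsr1 (-1.999, a GTPase-like factor of the late small subunit), Polr1c (-1.38, a subunit shared by RNA polymerases I and III), Bms1 (-1.47, a GTPase of the processome) and Bop1 (-2.33, of the PeBoW complex of the large subunit). Those called after 15 h of 4sU only were Rrp9 (-3.94, a protein of the U3 ribonucleoprotein), Noc4l (-2.89), Utp20 (-3.09) and Nop10 (-0.98). Leaving out 1 library ended the call of Bms1 in 4 of 6 fits (adjusted p 0.0165 to 0.124), of Bop1 in 4 (0.0354 to 0.182), of Utp20 in 5 (0.00784 to 0.157) and of Noc4l in 3 (0.0232 to 0.0817). It also ended that of Nop10 in 2 (0.00793 to 0.0636), of Polr1c in 1 (0.0104 to 0.0761) and of Rrp9 in 1 (0.0141 to 0.0645). The difference of these fold changes between the comparisons was not tested.

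**Figure D2:**
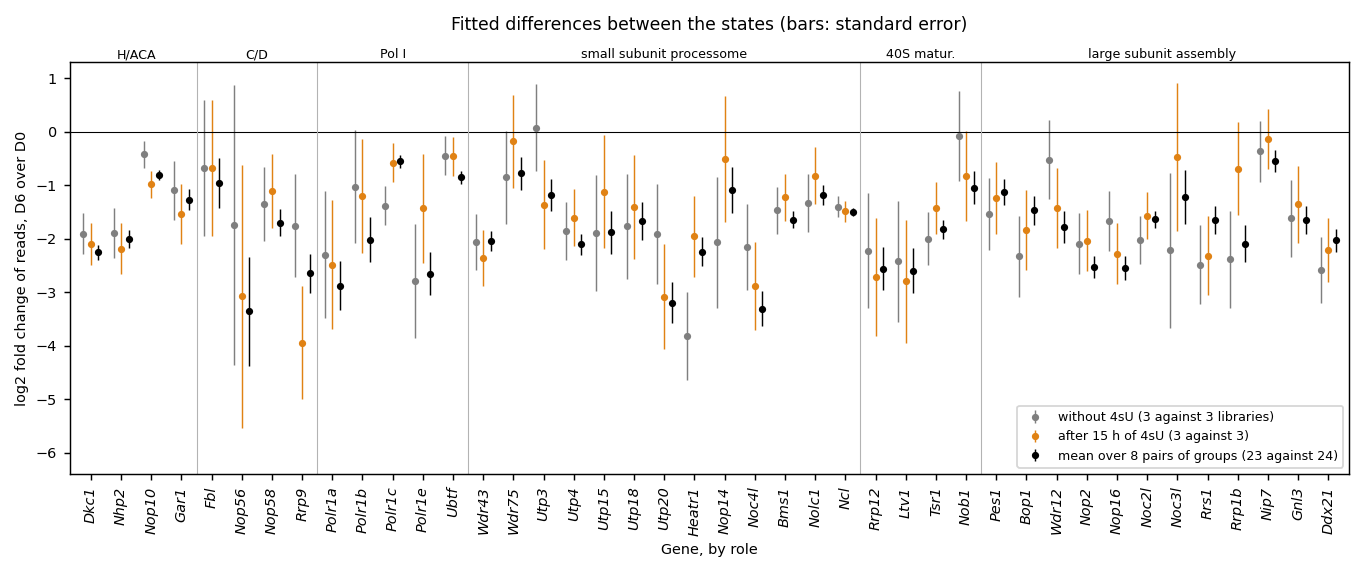
Log2 fold change of reads at D6 over D0 for the 42 genes by role, with standard errors as bars. Gray points are libraries without 4sU (3 against 3), orange points libraries after 15 h of 4sU (3 against 3), and black points the mean over 8 pairs of groups (23 against 24 libraries), which lies under 0 for all 42.

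To use all 47 libraries, in a comparison chosen after seeing the data, the mean of the 8 D6 groups was set against the mean of the 8 D0 groups in the same model. All 42 fold changes were negative (median -1.74), 41 were called lower and 0 higher, and the exception was Fbl. Without Nop56, which was hardly read, 40 of 41 were lower, from -3.31 to -0.54 (median -1.70). Of all genes 29.1% were lower and 16% higher, with a median of -0.42, and of genes with at least 20 CPM 32.8% were lower and 24.7% higher. With the anabolic groups alone 36 of the 42 were lower (20.8% of all genes lower, 15% higher), and with the catabolic groups alone 35 (24.1% and 12.6%). Without the 7 D6 libraries of low correlation, which left 7 pairs of groups, 39 were lower (25.4% and 19.9%). Without the D0 libraries of lowest correlation, 56 and 26, 40 were lower (27.2% and 16.5%).

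By role, the mean over all groups put each set below 0. Of the H/ACA proteins all 4 were lower (median -1.63), with Dkc1 at -2.26, Nhp2 at -2.003, Gar1 at -1.27 and Nop10 at -0.80. Of the C/D proteins 3 of 4 were lower. Rrp9 changed by -2.65 (SE 0.368) and Nop58, a scaffold of the particle, by -1.70 (SE 0.253). Fbl, which encodes the methyltransferase fibrillarin, gave -0.96 (SE 0.463, adjusted p = 0.0867), with 14.2 to 66.6 CPM at D0 and 0 to 72.9 at D6. Nop56 was hardly read, with at most 6.41 CPM at D0 and 0.623 at D6 and 19 of 23 D6 libraries at 0, and its fitted change, although called, is not given. Its 3′ UTR row spans 90 bases, and that of Nop14 spans 16. Reads outside a row were not counted, so that few reads do not show low expression.

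All 5 genes of RNA polymerase I and its factor were lower. Polr1a (-2.88, SE 0.457), the catalytic subunit, and Polr1e (-2.65, SE 0.402) changed most, followed by Polr1b (-2.02, SE 0.416). Ubtf, which encodes the activator UBF, changed by -0.85 (SE 0.130) and Polr1c by -0.55 (SE 0.130). Polr1a measured 13.8 to 101 CPM at D0 (median 64.5) and 0 to 48.6 at D6 (median 7.16).

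All 13 genes listed with the small subunit processome, among them Ncl and Nolc1, which are nucleolar factors outside that complex, were lower (median -1.67). Noc4l (-3.31, SE 0.327) and Utp20 (-3.20, SE 0.381) changed most. Heatr1 (-2.24), Utp4 (-2.10), Wdr43 (-2.04), Utp15 (-1.88), Utp18 (-1.67), Bms1 (-1.65) and Ncl (-1.50) followed, then Utp3 (-1.19), Nolc1 (-1.18, a chaperone of the modifying particles), Nop14 (-1.08) and Wdr75 (-0.78). All 4 genes of small subunit maturation and export were lower, with Ltv1 at -2.60, Rrp12 at -2.56, Tsr1 at -1.82 and Nob1, the endonuclease that makes the end of the mature small subunit rRNA, at -1.05.

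All 12 large subunit assembly genes were lower (median -1.66). Nop16 (-2.55, SE 0.220) and Nop2 (-2.53, SE 0.213) changed most, followed by Rrp1b (-2.09) and Ddx21 (-2.03). The PeBoW complex, which processes the precursor of the large subunit, fell in all its genes, Wdr12 by 1.78, Bop1 by 1.47 and Pes1 by 1.13 on the log2 scale. Gnl3, which encodes nucleostemin, fell by 1.66 (SE 0.263), Rrs1 by 1.66 and Noc2l by 1.63. Noc3l (-1.21, SE 0.508) and Nip7 (-0.54, SE 0.204) had the largest adjusted p of the 12 (0.0453 and 0.0243).

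**Figure D3:**
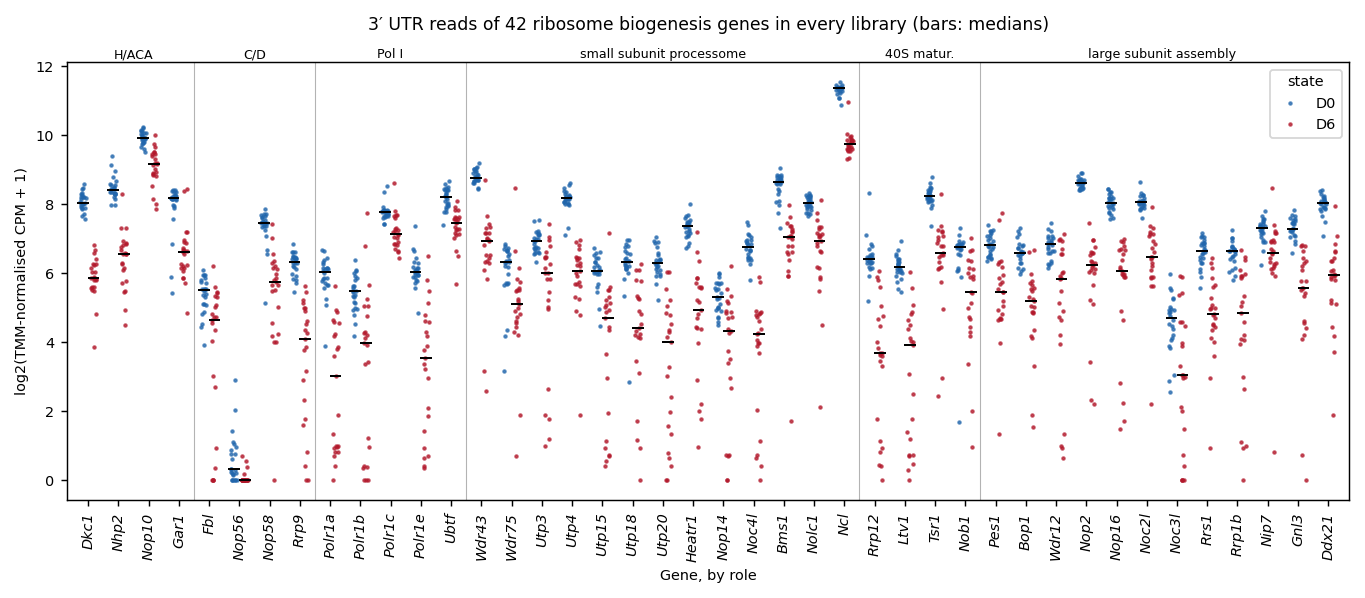
Reads of each of the 42 genes in every library as log2 of TMM-normalized CPM plus 1, by role, with D0 in blue, D6 in red and medians as bars. The D6 median lies under the D0 median for every gene, and the points of Dkc1, Utp4, Nop2 and Nop16 do not overlap.

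In libraries without 4sU, 25 of the 42 genes (59.5%) had every D6 library under every D0 library, compared with 14% of all genes, and 14.7% of all genes had every D6 library above. After 15 h of 4sU it was 29 genes (69%), with 14.7% of all genes under and 14% above. Over all 47 libraries Dkc1, Utp4, Nop2 and Nop16 (9.52%) did not overlap, against 1.82% of all genes under and 1.62% above. Utp4, a scaffold of the same subcomplex as Heatr1, ranged from 136 to 390 CPM at D0 and from 2.68 to 123 at D6. Nop2 ranged from 338 to 480 and from 3.65 to 173 CPM, and Nop16 from 190 to 346 and from 1.79 to 125.

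Genes of the same pathway outside the 42 were compared from lists made with earlier results of these data known. Of 112 other ribosome biogenesis genes, 12 were lower and 0 higher without 4sU (median -0.99) and 16 and 0 after 15 h (median -1.03). With the mean over all groups, 85 were lower (75.9%) and 0 higher (median -1.38). Of 75 genes for cytosolic ribosomal proteins, 7 and 11 were lower in the single comparisons and 34 (45.3%) with the mean over all groups, where the median was -0.71 and 0 were higher. Their fold changes without 4sU ran from -6.03 to 6.65. Only 48 of the 75 passed the coverage filter used for label below, against 41 of the 42 genes. The shares of all genes lower were 3.96% and 4.77% in the single comparisons and 29.1% with the mean over all groups (32.8% of genes with at least 20 CPM).

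Promoters from RefSeq (GRCm38.p6, 250 bases before to 50 after the start site) were found for 38 of the 42 genes. CACGTG, which reads the same on both strands, occurred in 8 of them (21.1%), in 19 of 91 other biogenesis genes (20.9%), in 6 of 55 ribosomal protein genes (10.9%) and in 8.09% of 27025 promoters of all symbols. All symbols include genes outside the 18980 of the files. The share among the genes tested for reads is not given here, and an enrichment was not tested. The sites are shown with 10 bases on each side, or up to the end of the window, and with the motif in capitals, since these 8 genes were all lower at D6 with the mean over all groups (as were the genes without the motif other than Fbl, which had no promoter in the table).
Ltv1, chr10:13193094-13193119, minus strand: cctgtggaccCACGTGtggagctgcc
Nop2, chr6:125131813-125131838, plus strand: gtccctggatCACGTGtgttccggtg
Pes1, chr11:3963967-3963992, plus strand: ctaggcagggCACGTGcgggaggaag
Tsr1, chr11:74898094-74898119, plus strand: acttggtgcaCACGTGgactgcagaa
Utp18, chr11:93885771-93885796, minus strand: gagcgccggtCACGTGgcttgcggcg
Utp20, chr10:88826765-88826787, minus strand: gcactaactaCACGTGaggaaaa
Utp4, chr8:106893645-106893670, plus strand: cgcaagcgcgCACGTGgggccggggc
Wdr43, chr17:71616222-71616247, plus strand: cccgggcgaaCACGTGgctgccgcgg

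A start with C followed by at least 4 pyrimidines, as in TOP mRNAs, whose translation answers to mTOR, occurred at 1 of the 38 start sites (2.63%), compared with 13 of the 55 ribosomal protein genes (23.6%), 1.1% of the other biogenesis genes and 3.01% of all symbols. That gene was Utp3, whose transcript starts on the plus strand at chr5:88554462-88554481 with the pyrimidine run in capitals.
Utp3: CTTTCCCagactctctgctc

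To see whether 4sU itself moved the reads, 9 h of label were compared with none. At D0, 0 of the 42 genes differed in either direction (0 at an unadjusted p under 0.05, against 2.99% of all genes, and 0 with DESeq2), against 0.00751% of all genes higher and 0% lower. At D6, 0 were higher and 1 was lower, against 0.015% and 0.0526% of all genes. At an unadjusted p under 0.05 it was 8 of 42 (19%), against 9.63% of all genes, and DESeq2 gave 1 higher and 3 lower, against 0.969% and 1.86%. The gene was Polr1b, a core subunit of RNA polymerase I (chr2:129126097-129126595, plus strand). It had 41, 99 and 94 reads (9.76, 32.3 and 14.7 CPM) without 4sU and 0, 0 and 1 read after 9 h, with no overlap. In the D6 libraries taken after 15 h of 4sU it measured 16.3 to 31.7 CPM, overlapping those without 4sU. In the anabolic groups whose labels give 1 and 3 h it measured 0 to 18.4 and 14.05 to 110 CPM. Of the 9 h libraries, 53 and 54 are among the 7 with a correlation under 0.7, and this comparison was not made without both. Reads per library total were 150-fold lower after 9 h, with a 95% exact interval of 26.6 to 5945 that, like all such intervals here, covers counting error only. The adjusted p was 0.0498, and the call was lost when any of the 6 libraries was left out (adjusted p 0.0585 to 0.230). The difference between the states in this effect was called for 0 genes (0% of all genes in both directions; 5 of the 42 at an unadjusted p under 0.05, or 11.9%, against 6.36% of all genes, and 1 lower with DESeq2, against 1.31%).

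Turning to RNA turnover, 41 of the 42 genes passed the coverage filter (1000 covered T positions per library on average), Nop56 being the exception. Summed over these 41, the conversion rate (conversions over covered T positions) was 0.205% ± 0.0716 (SD, n = 3) without 4sU at D0 and 0.218% ± 0.0390 at D6. It rose to 1.48% ± 0.147 after 15 h at D0 and to 4.65% ± 0.238 at D6, close to the 1.42% ± 0.0677 and 4.67% ± 0.344 of all 9184 covered genes. After 9 h of chase, 25.5% ± 2.49 (SD, n = 3) of the rate at 0 h was left at D0 and 18.1% ± 4.10 at D6. For all covered genes it was 29.1% ± 1.13 and 18.6% ± 1.34, and for 48 ribosomal protein genes, known for stable mRNAs, 79.2% ± 2.82 and 65.2% ± 7.22. The 41 genes lay far under the ribosomal proteins in both states, with libraries that did not overlap (23.5 to 28.3% against 77.1 to 82.4% at D0, and 13.4 to 21.1% against 58.2 to 72.6% at D6). The SDs and ranges of these shares cover the libraries at 9 h alone, since the mean rate at 0 h was held fixed. With the rate of cells without 4sU subtracted, an alternative chosen after seeing the data, 13.5% ± 2.89 was left at D0 and 14.1% ± 4.30 at D6. The lower share at D6 thus depended on whether that rate was subtracted. Between D0 libraries the rate without 4sU ran from 0.147 to 0.285%. This spread is outside the SDs, and its effect on the shares was not tested. After subtraction, all covered genes kept 19.5% ± 1.28 and 15.6% ± 1.39, and the ribosomal proteins 68.5% ± 4.28 and 62.3% ± 7.82.

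**Figure D4:**
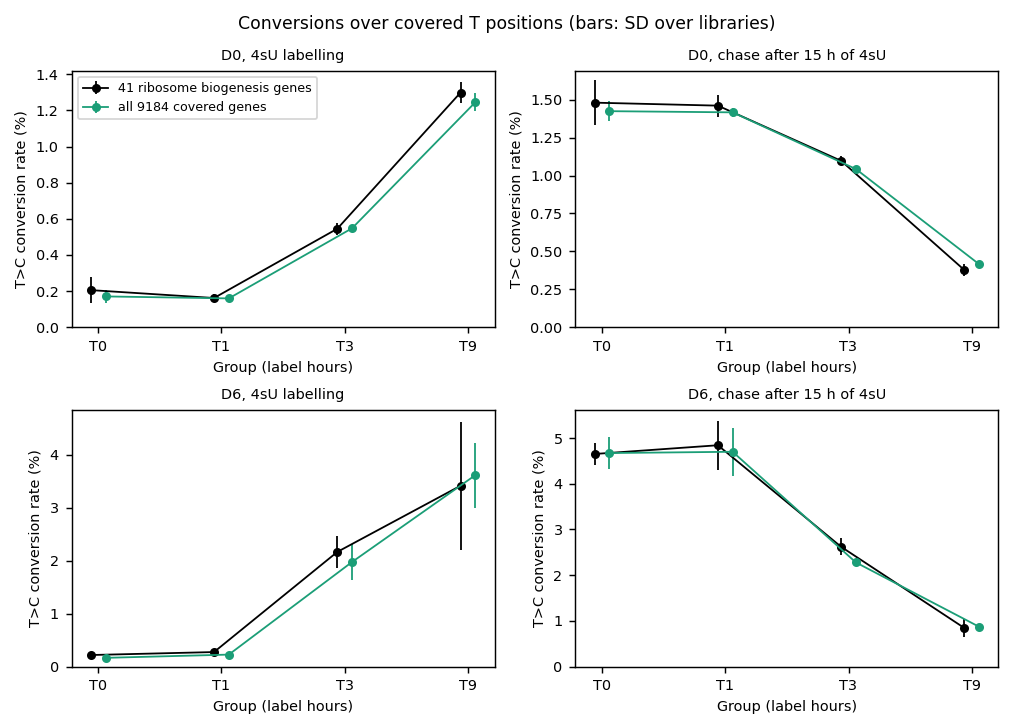
T>C conversion rate of the 41 covered ribosome biogenesis genes (black) and of all 9184 covered genes (green) at D0 (top) and D6 (bottom), during labeling (left) and during the chase after 15 h of 4sU (right), with means and SD over libraries at the hours of the labels (T). At 9 h of chase the genes measured 0.377% at D0 and 0.843% at D6, from 1.48% and 4.65% at 0 h.

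Per gene, the rate at 9 h of chase was tested against that at 0 h relative to the library-wide rate, so that a positive change means more label left than in the library as a whole. At D0 1 of the 41 genes was higher and 2 were lower, against 1.08% and 2.16% of 9184 genes (with DESeq2 1 and 4, against 2.6% and 9.3%). The median change of the 41 was -0.69, compared with -0.60 for all genes and 1.301 for ribosomal proteins, of which 13 of 48 were higher. At D6 0 were higher and 2 lower, against 1.14% and 1.76% of all genes (with DESeq2 0 and 7, against 2.12% and 7.04%), and 12 of the 41 (29.3%) had an unadjusted p under 0.05, against 18.5% of all genes. The medians were -0.36 for the 41, -0.63 for all genes and 1.83 for ribosomal proteins.

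Nop10, the smallest protein of the H/ACA particle, kept more label than the library average at D0 (chr2:112262454-112262898, plus strand). Its rates were 1.03, 1.61 and 1.304% at 0 h and 0.749, 0.822 and 0.876% at 9 h, with 0.186, 0.361 and 0.387% in cells without 4sU. The change was 1.096 (SE 0.257, adjusted p = 0.0120) relative to the library-wide rate, not called without library 25 of the 0 h group (adjusted p = 0.0788), and without that scaling it was -0.69, so that the direction is that of its share of label and not of its rate. At D6 the rates fell from 4.84, 4.71 and 4.12% to 1.25, 1.59 and 0.648%, a change of 0.44 (SE 0.254) that was not called (adjusted p = 0.364). The difference between the states, -0.66 (SE 0.359), was not called either (adjusted p = 0.474).

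Polr1c and Gnl3 lost label faster than the library at D0. Polr1c (chr17:46243920-46244101, minus strand) fell from 1.72, 2.69 and 1.48% to 0.0381, 0.0905 and 0.106% (-2.86, SE 0.687, adjusted p = 0.0146). Gnl3 (chr14:31012433-31012551, minus strand) fell from 1.97, 1.86 and 1.48% to 0.0812, 0.00367 and 0.0496% (-3.51, SE 0.954, adjusted p = 0.0348). At 9 h the rates of Polr1c were within the range of cells without 4sU (0.00288 to 0.118%), and those of Gnl3 were above its range (0.00323 to 0.00762%) in 2 of 3 libraries. Polr1c lost its call without library 26 of the 0 h group (adjusted p = 0.0624) or library 34 of the 9 h group (0.0839), and Gnl3 in 5 of the 6 fits with 1 library left out. The count of genes called lower was 1 in 5 of these 6 fits and 0 without library 26. With the median rate of well covered genes in place of the library-wide rate, which moved the median of all genes to -0.09 at D0 and -0.15 at D6, 0 genes were called lower at D0. At D6 the changes were -1.84 (adjusted p = 0.126) and -2.72 (adjusted p = 0.126).

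At D6 Nhp2 and Nip7 were called lower. Nhp2 had rates of 6.72, 4.20 and 0.873% at 0 h and of 0.0144, 0 and 0% at 9 h, or 879 conversions in 23899 covered T positions and 1 in 17520. Of the libraries at 0 h, 1 lay well under the other two, and all 3 were above those at 9 h. The rate was 644-fold lower (95% exact interval 115 to 25480), and the values at 9 h did not exceed those without 4sU (0 to 0.0203%). Relative to the library the adjusted p was 1.01e-04, and the call held with each library left out. At D0 Nhp2 fell from 0.687, 1.19 and 1.09% to 0.248, 0.301 and 0.238%, 3.904-fold (interval 3.46 to 4.41), which was a change of -0.12 relative to the library (adjusted p = 0.963). The difference between the states was -6.80 (SE 1.29, adjusted p = 0.0379), and 1 of the 41 genes was lower and 0 were higher (DESeq2 1 and 0), against 0.0436% and 0% of all genes. It was lost in 9 of 12 fits with 1 library left out (adjusted p 0.00908 to 0.128), and 0 genes were then called.

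Nip7, a factor of large subunit assembly (chr8:107058497-107060931, plus strand), fell at D6 from 4.72, 5.39 and 2.78% to 0.0129, 0.0563 and 0.0121% (6 conversions in 23109 covered T positions at 9 h). The change was -4.88 (SE 1.15, adjusted p = 0.0162), and the rates at 9 h were in the range without 4sU (0.0306 to 0.0519%) or lower, except 0.0563% in 1 library. At D0 the change was -1.07 (SE 0.916, adjusted p = 0.535) and the difference between the states -3.80 (SE 1.42, adjusted p = 0.272), which was not called. The count of genes lower at D6 rose to 7 without library 16 of the 9 h group, when the share of all genes lower also rose, to 3.57%, and fell to 1 without library 18 (1.07%).

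The most read gene, Ncl, followed the library in both states. Its rates fell from 1.33, 1.22 and 1.41% to 0.370, 0.297 and 0.421% at D0 and from 3.89, 4.23 and 4.51% to 1.15, 0.494 and 1.08% at D6. The changes relative to the library were -0.09 (SE 0.244) and 0.20 (SE 0.244), and their difference was 0.30 (SE 0.345, adjusted p = 0.811).

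New RNA was measured as the rate after 9 h of labeling over that after 15 h. Summed over the 41 genes it was 87.7% ± 4.06 (SD, n = 3) at D0 and 73.4% ± 25.96 at D6, close to the 87.4% ± 3.48 and 77.4% ± 13.1 of all covered genes. The D6 values ran from 45.9 to 97.4% between libraries. These SDs and this range cover the libraries at 9 h of labeling alone, since the mean rate after 15 h was held fixed. In the tests per gene 0 of the 41 differed at D0, at D6 or between the states (0, 2 and 2 at an unadjusted p under 0.05, against 6.46%, 6.03% and 7.77% of all genes, and 0 with DESeq2), against 0% and 0%, 0% and 0.0109%, and 0% and 0% of 9181 genes higher and lower. At D6 3 genes were lower when library 52 was left out, when 0.61% of all genes were. Counts of 0, here and in the other comparisons, do not show that reads or rates were equal.

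Half-lives were estimated without a test from the share left at 9 h and kept where R squared was over 0.6. At D0 28 of the 41 genes had one, with a median of 210 min and a range of 102 (Gnl3) to 785 min (Nop10), and at D6 20 had one, with a median of 142 min and a range of 73.9 (Nip7) to 475 min (Noc2l). For all genes the medians were 181 min (3182 genes) and 170 min (4517 genes). In both states 17 genes had one, with medians of 202 and 139 min. The half-life was shorter at D6 for 14 of them (82.4%), compared with 62.7% of 2283 genes. Ubtf (156 and 200 min), Nob1 (217 and 277 min) and Polr1c (116 and 128 min) were longer at D6. Nop10 went from 785 to 274 min, Bop1 from 383 to 127 min, Nop16 from 365 to 192 min, Utp18 from 264 to 159 min and Tsr1 from 227 to 139 min. Nop2 (203 and 116 min), Nolc1 (180 and 120 min), Ddx21 (172 and 111 min), Utp4 (189 and 144 min), Ncl (290 and 244 min), Wdr43 (144 and 126 min), Bms1 (202 and 192 min) and Gnl3 (102 and 99.8 min) were also shorter. These values depended on the settings. With the rate of cells without 4sU subtracted, 24 genes had a half-life at D0 and 16 at D6, and 9 of the 13 with both were shorter at D6 (69.2%, compared with 55.4% of all genes). The direction then turned for Nob1 (208 and 141 min), Ncl (225 and 238 min) and Bms1 (128 and 141 min). Nop16 at D0 went to 140 min, Utp18 at D0 to 138 min, Tsr1 at D0 to 147 min, Gar1 at D0 to 167 min and Nop2 at D6 to 42.99 min, and for Nip7 and Wdr43 in both states, Nop16 and Utp18 at D6 and Rrp12 and Rrs1 at D0 none was kept. With all times at the hours of the labels, 3 of 5 genes were shorter at D6 (60%, compared with 74.4% of all genes), and their median was longer at D6 (197 and 211 min). Over all genes kept in a state, the medians were 253 (20 genes) and 211 min (7 genes) with the hours of the labels and 345 (13 genes) and 234 min (5 genes) with those of the methods. With the hours of the methods, 2 of 3 were shorter (66.7%, compared with 73% of all genes). Ddx21 was longer at D6 with both sets of hours (197 and 211 min, and 327 and 337 min), and Polr1c was shorter (153 and 123 min, and 267 and 234 min). The share left at 9 h behind these values varied between libraries, for Nop10 62.1% ± 4.83 at D0 and 25.5% ± 10.4 at D6, and for Bms1 15.7% ± 7.14 and 14.2% ± 8.28 (SD, n = 3). These SDs cover the libraries at 9 h alone and leave out the spread of the rate at 0 h.

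The remaining genes had a half-life in 1 state or in none. At D0 only, values were 132 min for Ltv1, 155 min for Noc4l, 164 min for Heatr1, 184 min for Polr1e, 252 min for Rrs1, 268 min for Rrp9, 272 min for Nop58, 283 min for Nhp2, 284 min for Gar1, 297 min for Utp3 and 457 min for Rrp12. At D6 only, they were 126 min for Dkc1, 243 min for Wdr12 and 475 min for Noc2l. For Fbl, Noc3l, Nop14, Pes1, Polr1a, Polr1b, Rrp1b, Utp15, Utp20 and Wdr75 none was kept.

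**Figure D5:**
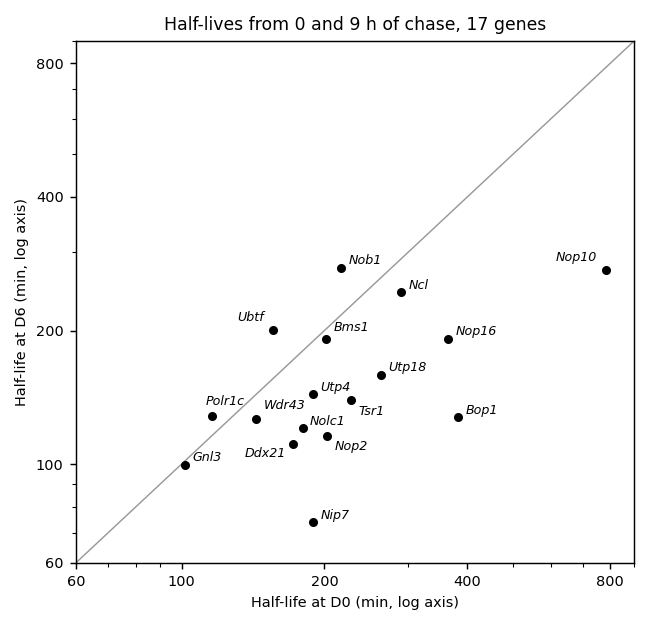
Decay half-lives in min at D0 and D6 on log axes for the 17 genes with a value in both states, each point a gene, with the line of equal values. Points under the line (14) have a shorter half-life at D6, and Ubtf, Nob1 and Polr1c lie above it.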

How the data were processed

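SLAM-seq libraries (QuantSeq 3′ mRNA-seq) were mapped to mm10 and counted over 3′ UTR intervals with SLAMdunk 0.3.3, per the labels and the submitters' processing notes. For each of 39419 intervals the authors deposited whole-number counts (reads, T coverage, T>C conversions), the conversion rate as a fraction, and CPM. Only the counts entered the tests. Counts were summed per RefSeq mRNA transcript (28190), and the transcript with most reads stood for a gene (18980 genes). Groups came from the labels, which number libraries without pairing them. Replicates differed beyond sampling noise in all 46 pairs of libraries (chi-square per degree of freedom 11.6 to 138). Median biological coefficient of variation was 0.949.

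Reads were tested in R 4.3.3 with edgeR 4.0.16 (quasi-likelihood test, TMM, filterByExpr, 16 group means), and conversions with the log of covered T positions and of the library-wide rate as offset, for genes whose covered T positions averaged 1000 or more per library. P-values were adjusted over all genes tested (Benjamini-Hochberg, 0.05). The rate at 0 h of chase was set to 1 for half-lives, which were fitted as exponential decay over 0 and 540 min and kept up to 5000 min. Tables were made with Python 3.11.15, numpy 2.4.6, scipy 1.17.1 and pandas 2.3.3. The scripts were tested on simulated data. Alternatives used DESeq2 1.42.0, limma 3.58.1, other normalizations, filters, coverage minimums and hours, and each library left out in turn.

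The 42 genes and all lists were chosen with earlier results of these data known. All 42 are named, and values of every library are given for up to 4 genes per direction with the smallest adjusted p among those called in a comparison and for genes called in a difference between states. Methods give the labeling before the chase as 15 h, and a shorter time once. Protein sequences were not used here.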

Additional observations from a re-analysis of the deposited data

Results flagged for a closer look

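The loss of label of Nhp2 over 9 h of chase differed between the states in a test of the difference itself (-6.80 on the log2 scale, relative to the library-wide rate; edgeR, adjusted p = 0.0379). The call was lost in 9 of 12 fits with 1 library left out (adjusted p 0.00908 to 0.128), at a minimum of 100 covered T positions (0.0566) and with the slope over the methods' hours (0.107). Its rate was 0.0144, 0 and 0% at 9 h at D6. Depth moved with it: the 3 libraries at 9 h covered 17520 T positions of Nhp2 at D6 and 140489 at D0, and the dose of 4sU differed between the states. Their part in the difference was not tested.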

How the results depend on the processing

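No paired analysis was possible because the labels give every library a number of its own and no groups share numbers. Counts are of the 42 genes (41 for label). Without 4sU, 15 genes were lower, and 41, 36, 35, 39 and 40 with the means over all, anabolic and catabolic groups and without the libraries of low correlation. For 9 h of 4sU at D6, DESeq2 gave 1 higher and 3 lower (0.969% and 1.86% of all genes), and no filter 2 lower (31 of 14784 genes lower). RLE factors and library size only gave 0 lower (3 of 13312 genes each). With only the groups compared it was 0 (0 of 9554 genes), and with all transcripts 0 (4 of 20699 transcripts). DESeq2 gave 1 lower for the difference between states (1.31% of all genes). Label left at D0 gave 0 higher and 18 lower without the library-wide rate (30.2% of all genes lower), under which Nop10 reversed to -0.69. It gave 4 lower with DESeq2 (9.3%), 0 lower with the median rate (96 of 9184 genes) and 0 with the slope over the methods' hours. At D6 it gave 7 lower with DESeq2 (7.04%), 25 without the library-wide rate (45.1% of all genes), 1 with that slope, and 1 higher with the median rate. For the difference of label left between states, 0 were lower at a minimum of 100 covered T positions and with that slope. Calls over all genes with that slope, at that minimum, and at D6 with the median rate are not given here. These counts therefore cannot be read against a background. The summed share of label left at D0 went from 25.5 to 13.5% with the rate without 4sU subtracted. Half-lives were kept for 13 genes at D0 and 5 at D6 with the methods' hours and for 7 at D6 with those of the labels. The cause was not tested.

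With each library left out in turn, genes lower numbered 9 to 12 without 4sU, 9 to 11 after 15 h of 4sU, 0 to 2 for 9 h of 4sU at D6, 0 to 1 (and 0 to 1 higher) for label left at D0, 1 to 7 at D6, 0 to 1 for its difference and 0 to 3 for uptake at D6. In the 4 counts of genes called higher or lower between the states without 4sU and after 15 h, all other planned settings stayed within 1.5 times the count given. For Nhp2 at D6, 1 conversion was counted in 17520 covered T positions at 9 h of chase, so that a lower rate was not detectable at this depth.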

Other observations

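Impaired ribosome production is known to activate p53. Of 9 p53 target genes tested, from a list made with earlier results of these data known, 0 were higher and 0 lower at D6 in edgeR's test without 4sU (0 at an unadjusted p under 0.05), 0 and 0 after 15 h of 4sU (1 at an unadjusted p under 0.05), and 2 higher and 2 lower with the mean over all groups (22.2% each, against 16% and 29.1% of all genes; median 0.29). At an unadjusted p under 0.05, 22.3% and 22.1% of all genes differed in the single comparisons.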
